A study of Mus musculus with 12 samples.

Results

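The cytochrome P450 genes described here were all genes of the count table whose symbol placed them in the Cyp2a, 2b, 2d, 2f, 2g, 2j, 2r, 2s, 2u, 3a, 4a, 4b, 4f or 4v subfamilies, without pseudogenes marked "-ps" and without Cyp2a5 and Cyp3a11. The choice by symbol took 57 of 55401 genes, among them Cyp2ab1, whose symbol also starts with Cyp2a and which was kept as a subfamily of its own, which made 15 subfamilies. Of these 57 genes, 37 had a mean of at least 1 CPM (counts relative to the library total, scaled by trimmed mean of M-values) over the 12 libraries and are called expressed, and 20 had less. The count was the same, 37, without this scaling, and it was 38 at a limit of 0.5 CPM. The genes nearest to the limit were Cyp3a44 at 1.17 CPM inside it and Cyp4f39 at 0.774 CPM outside it.

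P450 enzymes are haem proteins of the endoplasmic reticulum that add oxygen to fatty acids, steroids, bile acids and drugs, with electrons passed on by P450 reductase (Por). The liver is their main site, and many of its P450 genes are read mostly in hepatocytes near the central vein, where an acetaminophen overdose also does its damage. The P450 enzymes best known for turning acetaminophen into its toxic product are outside the genes described here, whose roles lie mainly in the oxidation of fatty acids and eicosanoids (Cyp4a, Cyp4f, Cyp2j, Cyp2u1), of steroids and bile acids (Cyp2a, Cyp2d, Cyp3a) and of vitamin D (Cyp2r1).

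Whole livers of male mice aged 7 to 10 weeks were sequenced in 12 libraries, with 3 libraries in each of 4 groups. FBXL5ΔDC mice carried floxed Fbxl5 alleles and a CD11c-Cre transgene, so that Cre follows Itgax expression, which is strongest in dendritic cells, and control mice carried the floxed alleles without Cre. FBXL5 senses iron and marks iron-regulatory protein for breakdown. Livers of each genotype were taken 6 h after an intraperitoneal injection of acetaminophen (6 h) or from mice given none (0 h). Injected mice had been fasted for 16 h and were fed afterwards, and the labels name doses of 300 and 500 mg/kg and do not tie either to these libraries. The feeding state of the 0 h mice is not stated. The labels do not state which mice were littermates, so p-values measure the spread between these samples only. In whole liver, fewer cells of a type and less RNA per cell cannot be told apart.

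Total counts were 67173096 to 72512319 per library. The 7 hepatocyte markers examined summed to 111748 to 144955 CPM in FBXL5ΔDC livers at 6 h and to 81372 to 91380 CPM at 0 h, and to 68321 to 119380 CPM in control livers at 6 h and to 74644 to 82752 CPM at 0 h. Of these markers 2 (Alb and Fgb) rose in FBXL5ΔDC livers, where 15.0% of all tested genes did, and 0 were called in control livers, where 10.6% were. Fbxl5 itself averaged 18.6 ± 5.25 CPM (SD, n = 3 here and below) in FBXL5ΔDC livers at 6 h against 15.8 ± 3.01 CPM in control livers at 6 h, and 17.2 ± 5.99 CPM in FBXL5ΔDC livers at 0 h against 20.1 ± 2.27 CPM in control livers at 0 h, with no call in any comparison. Control 6 h replicate 3 stood apart from its group. On the leading principal component, which held 39.8% of the variance, it scored 86.8, against -9.46 and -8.18 for the other control 6 h libraries and 97.7 to 107 for the FBXL5ΔDC 6 h libraries. Counts of calls that rest on control livers at 6 h are therefore given with and without it.

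Fatty acid hydroxylases of the Cyp4a subfamily made up the largest part of the message of these genes. Divided by exon length, so that genes can be compared, the Cyp4a genes held 61.4% of the summed level (CPM per kb) of all 57 genes in FBXL5ΔDC livers at 6 h and 57.9% at 0 h, and 55.6% in control livers at 6 h and 59.7% at 0 h. Cyp2d followed with 19.6% and 24.4% in FBXL5ΔDC livers at 6 h and 0 h, and 22.5% and 23.1% in control livers at 6 h and 0 h. Cyp2f2 alone held 8.24% and 5.19% in FBXL5ΔDC livers at 6 h and 0 h, and 7.85% and 4.68% in control livers at 6 h and 0 h. All other subfamilies were below 6% in every group. The 2 highest genes by mean level were Cyp4a14 at 2830.1 CPM per kb and Cyp4a10 at 1727 CPM per kb. They were followed by Cyp2d9 at 637, Cyp2d10 at 599, Cyp2f2 at 529, Cyp2d26 at 508 and Cyp3a25 at 323 CPM per kb. Together the 57 genes took 1.98 ± 0.118% of all counts in FBXL5ΔDC livers at 6 h and 2.01 ± 0.0924% at 0 h, and 1.59 ± 0.207% in control livers at 6 h and 2.08 ± 0.128% at 0 h.

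**Figure D1:**
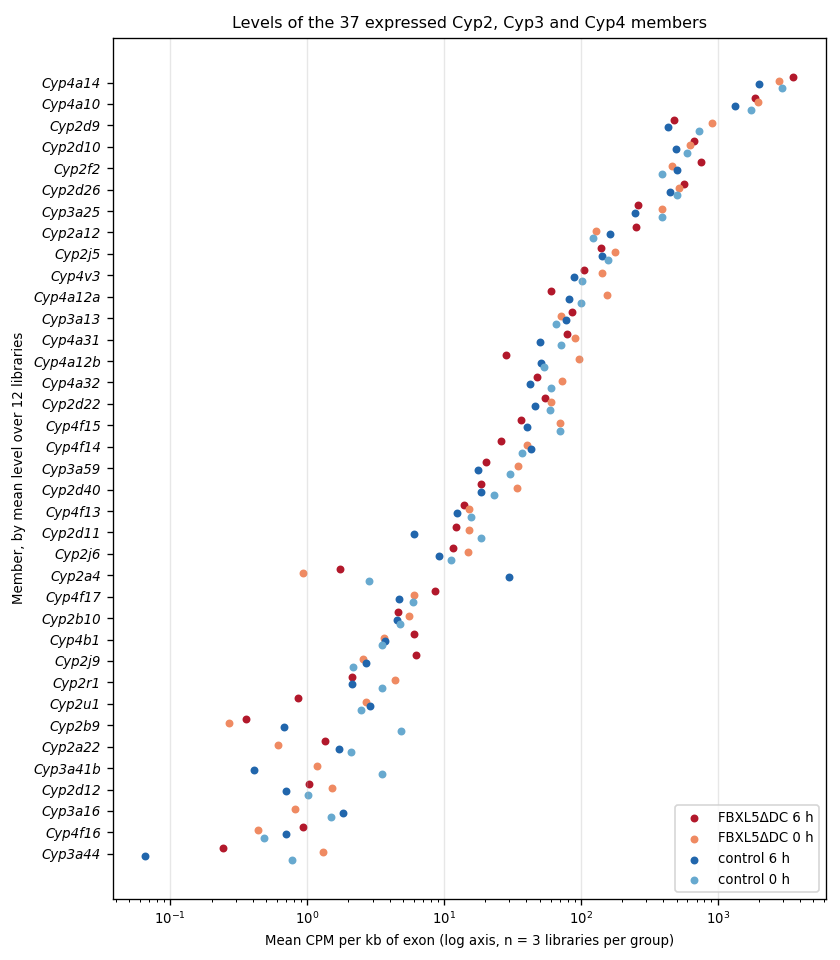
Mean level of each of the 37 expressed genes in CPM per kb of exon (log axis), with a point for the mean of 3 libraries in each of the 4 groups; groups at 0 (Cyp3a16 and Cyp3a41b in FBXL5ΔDC livers at 6 h) have no point. Cyp4a14 and Cyp4a10 lie at the top in every group.

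The 20 genes under 1 CPM included 8 with no count in any library, which were Cyp2b23, Cyp2j7, Cyp2j11, Cyp2j12, Cyp2j13, Cyp4a29, Cyp4a30b and Cyp4f40. A further 5 had too few counts to be tested (Cyp2ab1, Cyp2b13, Cyp2b19, Cyp3a57 and Cyp4f37). The other 7 were tested and lay between 0.0932 CPM for Cyp3a41a and 0.774 CPM for Cyp4f39, with Cyp2d34, Cyp2g1, Cyp2j8, Cyp2s1 and Cyp4f18 between them. Across these genes 44 of 57 were thus tested.

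Gene counts were compared between groups with edgeR's quasi-likelihood test over all 17585 tested genes, and a change was called at a Benjamini-Hochberg adjusted p below 0.05. More of these genes passed the test for a change with acetaminophen in FBXL5ΔDC than in control livers, while no gene passed the test of the difference between these responses. In FBXL5ΔDC livers 5 of the 44 tested genes were higher at 6 h than at 0 h, against 15.0% of all tested genes, and 11 were lower, against 15.1% of all tested genes, which makes 16 of 44 (36.4%) against 30.1% in either direction. The 11.4% that rose was thus near the share of all genes, and the 25.0% that fell was above it. This excess was not tested. Leaving out 1 library gave 7 to 12 genes lower, and the 11 include Cyp2g1, whose values lie near the detection floor. Related genes also share sequence, so they do not count as independent. In control livers 0 of 44 were higher, where 6.36% of all genes were, and 1 of 44 was lower, where 4.20% of all genes were. At an unadjusted p below 0.05, 2 genes were higher and 9 lower in control livers, where 14.4% and 10.3% of all genes were. DESeq2 called 1 higher and 6 lower, where it called 9.87% and 7.01% of all genes.

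Medians over the expressed genes were below 0 in both genotypes. The median log2 change of the 37 expressed genes from 0 h to 6 h was -0.31 in FBXL5ΔDC livers, against 0.02 for all genes. In control livers it was -0.30, against 0.03 for all genes. The difference between the responses, tested as an interaction, was called for 0 of 44 genes in either direction, where 0.0341% of all genes were called higher and 0.256% lower. At an unadjusted p below 0.05 the interaction was positive for 2 genes and negative for 5, where it was for 5.20% and 9.26% of all genes. DESeq2 called 0 and 2, where it called 1.27% and 2.72% of all genes. Leaving out control 6 h replicate 3 changed this to 3 genes positive and 3 negative, as given with the genotype comparison.

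**Figure D2:**
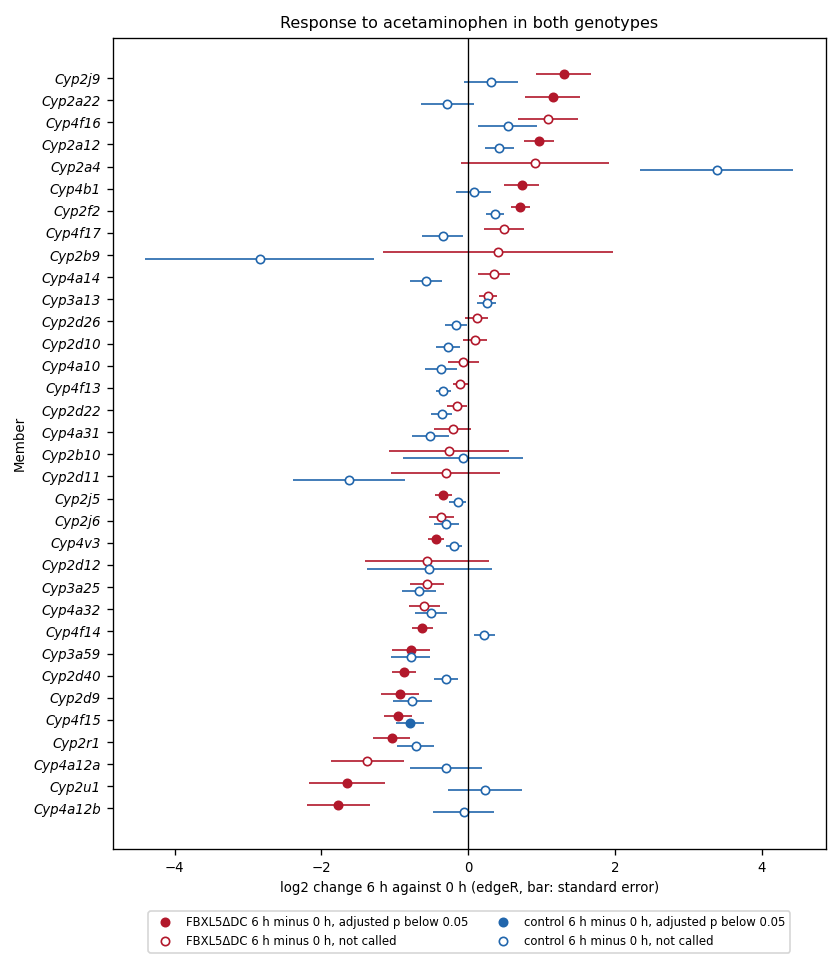
Log2 change from 0 h to 6 h (edgeR, bar: standard error) in FBXL5ΔDC livers (red, above) and control livers (blue, below) for the 34 expressed genes with every group above the detection floor; filled points have an adjusted p below 0.05. In FBXL5ΔDC livers filled points run from Cyp2j9 at 1.30 to Cyp4a12b at -1.77, and in control livers Cyp4f15 at -0.79 is the only filled point.

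Cyp4a enzymes add a hydroxyl group to the end of medium- and long-chain fatty acids, and their genes are classic targets of the fatty acid receptor PPARα. The subfamily's 6 expressed genes lie in a cluster on chromosome 4 with Cyp4a14 at chr4:115486200-115496142 on the minus strand (GRCm38, GENCODE vM21). The summed Cyp4a level was 13692 ± 2568 CPM in FBXL5ΔDC livers at 6 h and 12325 ± 1046 CPM at 0 h. It was 8545 ± 2270.2 CPM in control livers at 6 h and 12040.0 ± 1622 CPM at 0 h.

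Cyp4a14 stood at 8937, 11302 and 7544 CPM in FBXL5ΔDC livers at 6 h and at 6355, 7771 and 7619 CPM at 0 h. In control livers it stood at 5665, 3477 and 6460.4 CPM at 6 h and at 6743, 8313 and 8144 CPM at 0 h. Every FBXL5ΔDC library at 6 h was above every control library at 6 h. The log2 difference between FBXL5ΔDC and control livers at 6 h was 0.83 ± 0.22 (SE, here and after every log2 value; edgeR adjusted p = 0.0415). This call was close to the threshold: in edgeR fits without a single library it was kept without control 6 h replicate 3 (log2 1.02, adjusted p = 0.0042) or FBXL5ΔDC 6 h replicate 3 (adjusted p = 0.0476), and lost without any other library (adjusted p 0.0541 to 0.155). Neither response to the drug was called for Cyp4a14, with a log2 change of 0.35 ± 0.22 in FBXL5ΔDC livers (edgeR adjusted p = 0.245) and -0.57 ± 0.22 in control livers (edgeR adjusted p = 0.114).

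Cyp4a10, also a fatty acid hydroxylase, averaged 3946 ± 755 CPM in FBXL5ΔDC livers at 6 h and 4127 ± 352 CPM at 0 h, and 2833 ± 800.2 CPM in control livers at 6 h and 3663 ± 657 CPM at 0 h. Cyp4a31 averaged 198 ± 11.7 CPM in FBXL5ΔDC livers at 6 h and 228 ± 80.2 CPM at 0 h, and 126 ± 25.0 CPM in control livers at 6 h and 179 ± 53.1 CPM at 0 h. Neither gene passed the test in any comparison. Cyp4a32 averaged 73.5 ± 16.6 CPM in FBXL5ΔDC livers at 6 h and 111 ± 14.4 CPM at 0 h, and 65.4 ± 12.2 CPM in control livers at 6 h and 92.9 ± 22.9 CPM at 0 h. Its log2 change of -0.60 ± 0.21 in FBXL5ΔDC livers had an edgeR adjusted p at the threshold without passing it. That of -0.51 ± 0.21 in control livers was not called (edgeR adjusted p = 0.157). DESeq2 called the fall of Cyp4a32 in FBXL5ΔDC livers (adjusted p = 0.0386). Of the 50-base stretches of Cyp4a32, 43.8% are found in other genes and 32.6% in Cyp4a10. For Cyp4a10 and Cyp4a31, 29.8% and 20.6% are found in other genes. Over the 12 libraries Cyp4a10 averaged 3642 CPM and Cyp4a32 85.8 CPM, so some counts of Cyp4a32 could belong to Cyp4a10.

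Cyp4a12a and Cyp4a12b, near-identical neighbours and male-predominant in mouse liver, had lower means at 6 h than at 0 h in FBXL5ΔDC livers. There Cyp4a12b alone of the pair passed the edgeR test. Cyp4a12b stood at 100.2, 28.9 and 76.1 CPM in FBXL5ΔDC livers at 6 h, below the 205, 229 and 265 CPM at 0 h. In control livers its values overlapped, with 133, 168 and 66.7 CPM at 6 h and 106, 119 and 159 CPM at 0 h. It fell in FBXL5ΔDC livers by 1.77 ± 0.43 on the log2 scale (edgeR adjusted p = 0.0101) and changed by -0.06 ± 0.42 in control livers (edgeR adjusted p = 0.957). The interaction of -1.71 ± 0.59 was not called (edgeR adjusted p = 0.224). Cyp4a12a averaged 146 ± 96.5 CPM in FBXL5ΔDC livers at 6 h and 377 ± 88.2 CPM at 0 h. This log2 change of -1.37 ± 0.50 was not called by edgeR (adjusted p = 0.0631) but was called by DESeq2 (adjusted p = 0.0094). The 2 genes share 48.9% of the 50-base stretches of Cyp4a12a and 49.4% of those of Cyp4a12b, so counts could be split between them in ways that the sources used here do not give. Their coding sequences of 1524 bases differ at 23 bases (98.5% identity). A stretch of 90 bases, positions 661 to 750 of the coding sequence, holds 7 of these differences, in capitals (GENCODE vM21, chromosome 4, plus strand):
Cyp4a12a: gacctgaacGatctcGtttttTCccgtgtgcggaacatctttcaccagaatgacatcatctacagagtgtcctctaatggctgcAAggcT
Cyp4a12b: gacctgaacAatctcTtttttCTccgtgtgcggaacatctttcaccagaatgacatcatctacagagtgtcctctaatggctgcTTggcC

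PPARα targets outside the P450 genes were read beside them. Of 10 such genes, 1 rose (Pdk4) and 1 fell (Acot1) in FBXL5ΔDC livers, where 15.0% and 15.1% of all genes did. In control livers 0 rose and 7 fell, where 6.36% and 4.20% of all genes did, and 0 of 10 were called in the interaction. At 6 h 2 of 10 were higher in FBXL5ΔDC than in control livers, and 0 were lower, where 1.35% and 4.51% of all genes were. Among the higher genes was Ehhadh, an enzyme of peroxisomal fatty acid oxidation, with a log2 difference of 1.03 (edgeR adjusted p = 0.0117). The list's median log2 difference at 6 h was 0.63, against -0.01 for all genes. Without control 6 h replicate 3, 8 of 10 were higher and 0 lower in FBXL5ΔDC livers at 6 h, where 10.1% and 12.9% of all genes were. In this fit 2 rose and 2 fell in FBXL5ΔDC livers (16.9% and 17.3% of all genes), and 0 rose and 7 fell in control livers (5.23% and 3.86%). The interaction was then positive for 6 and negative for 0, where it was for 5.97% and 7.74% of all genes. The receptor gene Ppara was itself lower in FBXL5ΔDC than in control livers at 6 h, at 16.1, 17.0 and 30.6 CPM against 62.9, 50.5 and 31.0 CPM (log2 -1.18, edgeR adjusted p = 0.0276). Of these Ppara values control replicate 3 lay beside the highest FBXL5ΔDC library, and without it the log2 difference was -1.42 (edgeR adjusted p = 0.0013).

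Cyp4f enzymes hydroxylate leukotrienes and long-chain fatty acids. In sum the subfamily stood at 239.7 ± 25.1 CPM in FBXL5ΔDC livers at 6 h and 347 ± 5.74 CPM at 0 h, and at 269.6 ± 32.0 CPM in control livers at 6 h and 340.5 ± 16.6 CPM at 0 h. Of its 5 expressed genes 2 fell in FBXL5ΔDC livers, where 15.1% of all genes did. Of these, 1 also fell in control livers, where 4.20% of all genes did.

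Cyp4f15 stood at 75.4, 106 and 68.0 CPM in FBXL5ΔDC livers at 6 h and at 161, 169 and 152 CPM at 0 h. Control livers had 84.0, 116 and 75.8 CPM at 6 h and 139, 156 and 182 CPM at 0 h. All 6 h libraries were thus below all 0 h libraries in both genotypes. The gene fell by 0.95 ± 0.19 on the log2 scale in FBXL5ΔDC livers (edgeR adjusted p = 0.0028) and by 0.79 ± 0.19 in control livers (edgeR adjusted p = 0.0197). It was the only 1 of the 44 genes that edgeR called in control livers. The control call was lost without control 0 h replicate 2 or 3 or control 6 h replicate 1 (adjusted p up to 0.0830).

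Cyp4f14 inactivates leukotriene B4 in mouse. It stood at 67.3, 67.1 and 55.2 CPM in FBXL5ΔDC livers at 6 h and at 89.9, 98.1 and 105 CPM at 0 h. Control livers had 110.0, 119 and 82.9 CPM at 6 h and 98.1, 83.8 and 85.6 CPM at 0 h. The 3 FBXL5ΔDC libraries at 6 h were the lowest of all 12. Cyp4f14 fell by 0.63 ± 0.14 on the log2 scale in FBXL5ΔDC livers (edgeR adjusted p = 0.0062) and was lower than in control livers at 6 h, with a log2 difference of -0.72 ± 0.14 (edgeR adjusted p = 0.0166). The genotype call was lost without control 6 h replicate 1 or 2 or FBXL5ΔDC 6 h replicate 3 (adjusted p up to 0.162 over all alternatives). The change of 0.22 ± 0.14 in control livers was not called. The interaction of -0.85 ± 0.20 was not called by edgeR with all libraries (adjusted p = 0.0981). DESeq2 called it with all libraries (-0.83 ± 0.23, adjusted p = 0.0135), and edgeR called it without control 6 h replicate 3 (-0.99 ± 0.16, adjusted p = 0.0015).

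Among the other Cyp4f genes, Cyp4f13 averaged 62.4 ± 3.85 CPM in FBXL5ΔDC livers at 6 h and 67.1 ± 3.69 CPM at 0 h, and 55.6 ± 0.900 CPM in control livers at 6 h and 70.3 ± 6.38 CPM at 0 h. Cyp4f17 averaged 27.2 ± 6.26 CPM in FBXL5ΔDC livers at 6 h and 19.4 ± 1.39 CPM at 0 h, and 15.0 ± 7.35 CPM in control livers at 6 h and 19.0 ± 2.40 CPM at 0 h. Within the control 6 h group Cyp4f17 ran from 10.4 to 23.4 CPM, with replicate 3 the highest. Cyp4f16 was low, between 0.981 and 4.11 CPM. None of these 3 genes passed the edgeR test with all libraries. DESeq2 called Cyp4f13 lower in control livers at 6 h than at 0 h (adjusted p = 0.0095). It called Cyp4f16 higher in FBXL5ΔDC livers at 6 h than at 0 h (adjusted p = 0.0332). Cyp4f17 was called higher by DESeq2 in FBXL5ΔDC than in control livers at 6 h (adjusted p = 0.0342).

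Cyp4v3, the mouse counterpart of the human fatty acid hydroxylase CYP4V2, stood at 404, 366 and 429 CPM in FBXL5ΔDC livers at 6 h and at 553, 514 and 549 CPM at 0 h. It stood at 317, 370.3 and 332 CPM in control livers at 6 h and at 386, 404 and 374 CPM at 0 h. The FBXL5ΔDC 0 h libraries were the highest of the 12. Cyp4v3 fell in FBXL5ΔDC livers by 0.43 ± 0.11 on the log2 scale (edgeR adjusted p = 0.0101). An exon of Gm45753 overlaps it on the same strand, so some of its counts could belong to that gene.

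Cyp4b1, known for activating lung toxins such as ipomeanol, stood at 12.2, 14.1 and 14.3 CPM in FBXL5ΔDC livers at 6 h and at 10.4, 5.82 and 8.27 CPM at 0 h. Control livers had 7.03, 7.59 and 10.6 CPM at 6 h and 9.93, 6.93 and 7.02 CPM at 0 h. The FBXL5ΔDC 6 h libraries were above all 9 others. Its log2 change in FBXL5ΔDC livers was 0.73 ± 0.24 (edgeR adjusted p = 0.0355), and the call was lost without any FBXL5ΔDC 6 h library or without FBXL5ΔDC 0 h replicate 2 or 3 (adjusted p up to 0.147).

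Genes of a cluster on chromosome 7 were among those that rose. Cyp2f2, which oxidises naphthalene and is expressed mainly in periportal hepatocytes, stood at 1410.3, 1647 and 1546 CPM in FBXL5ΔDC livers at 6 h and at 839, 924 and 1045 CPM at 0 h. Control livers had 906, 1039 and 1115 CPM at 6 h and 806, 759.7 and 814 CPM at 0 h. At 6 h it lay above 0 h in each genotype without overlap, and FBXL5ΔDC livers lay above control livers. It rose by 0.71 ± 0.13 on the log2 scale in FBXL5ΔDC livers (edgeR adjusted p = 0.0013). The change of 0.36 ± 0.12 in control livers was not called by edgeR (adjusted p = 0.0835) but was called by DESeq2 (adjusted p = 0.0450). Neither tool called the interaction. The log2 difference between FBXL5ΔDC and control livers at 6 h was 0.59 ± 0.13 (edgeR adjusted p = 0.0203) and was lost without control 6 h replicate 1 or 2 or FBXL5ΔDC 6 h replicate 2 (adjusted p up to 0.171 over all alternatives). The antisense gene Gm15883 overlaps an exon of Cyp2f2, and as the strand setting of the counting is not given, reads of the pair cannot be told apart.

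Cyp2a12, which hydroxylates bile acids and testosterone, stood at 866, 988 and 770.0 CPM in FBXL5ΔDC livers at 6 h and at 411, 478 and 455 CPM at 0 h. Control livers had 448, 452 and 804 CPM at 6 h and 389.6, 438 and 439 CPM at 0 h. Control 6 h replicate 3 lay within the range of the FBXL5ΔDC 6 h libraries, and the other 2 control 6 h libraries lay beside the untreated ones. Cyp2a12 rose in FBXL5ΔDC livers by 0.97 ± 0.20 on the log2 scale (edgeR adjusted p = 0.0036). The change of 0.43 ± 0.20 in control livers was not called (edgeR adjusted p = 0.208), nor was the difference of 0.62 ± 0.20 between FBXL5ΔDC and control livers at 6 h (edgeR adjusted p = 0.0872).

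The promoters of Cyp2a12 and Cyp2f2 are shown because these genes neighbour each other on chromosome 7 and rose together in FBXL5ΔDC livers. They are 300 bases around the start of each gene (RefSeq, GRCm38.p6, in which 45 of the 57 genes had a promoter). The half-site of nuclear receptors (AGGTCA) and the TATA box (TATAAA), searched on both strands, are in capitals, and no promoter printed here held both. The half-site is held by 16.3% and the TATA box by 13.6% of 32851 promoters of this length. Cyp2a12 held a TATA box and no half-site, and Cyp2f2 held a half-site and no TATA box.
Cyp2a12 (chr7:27028840-27029139, plus strand): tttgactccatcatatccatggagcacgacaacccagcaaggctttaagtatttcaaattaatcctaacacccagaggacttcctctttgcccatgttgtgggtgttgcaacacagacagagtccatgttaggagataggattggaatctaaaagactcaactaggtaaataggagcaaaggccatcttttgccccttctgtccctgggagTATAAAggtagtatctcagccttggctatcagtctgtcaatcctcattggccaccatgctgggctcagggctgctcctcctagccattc
Cyp2f2 (chr7:27119705-27120004, plus strand): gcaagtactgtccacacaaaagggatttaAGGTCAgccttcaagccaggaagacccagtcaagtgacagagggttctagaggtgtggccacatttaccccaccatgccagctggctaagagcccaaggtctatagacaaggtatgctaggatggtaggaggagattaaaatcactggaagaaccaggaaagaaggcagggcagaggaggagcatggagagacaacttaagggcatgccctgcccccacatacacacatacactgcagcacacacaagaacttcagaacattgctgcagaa

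Cyp2a22 stood at 4.18, 5.10 and 4.74 CPM in FBXL5ΔDC livers at 6 h and at 1.46, 3.29 and 1.55 CPM at 0 h. In control livers it stood at 8.01, 5.86 and 3.87 CPM at 6 h and at 4.89, 6.86 and 9.80 CPM at 0 h. Untreated FBXL5ΔDC livers had the lowest values of the 12. Its log2 change in FBXL5ΔDC livers was 1.15 ± 0.37 (edgeR adjusted p = 0.0325), a call lost without any FBXL5ΔDC 6 h library or without FBXL5ΔDC 0 h replicate 1 or 3 (adjusted p up to 0.124). Between untreated livers the log2 difference of FBXL5ΔDC and control was -1.77 ± 0.38, not called by edgeR (adjusted p = 1) but called by DESeq2 (adjusted p = 0.0081). Cyp2a22 shares 20.2% of its 50-base stretches with Cyp2a12.

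Cyp2a4, a testosterone hydroxylase that is female-predominant in mouse liver, was carried by a single library. It had 3.24, 1.74 and 4.10 CPM in FBXL5ΔDC livers at 6 h and 0.843, 1.59 and 2.38 CPM at 0 h. Control livers had 7.46, 138 and 8.92 CPM at 6 h and 5.03, 5.25 and 4.51 CPM at 0 h. Control 6 h replicate 2 thus lay far above all other libraries, and no comparison was called with all libraries. Cyp2a4 shares 36.1% of its 50-base stretches with Cyp2a5, which was not among the genes described here and stood at 1285, 1120 and 337 CPM in control livers at 6 h. The coding sequences of Cyp2a4 and Cyp2a5, of 1482 bases each, differ at 23 bases (98.4% identity). Positions 580 to 669 hold 5 of the differences, in capitals (GENCODE vM21, chromosome 7):
Cyp2a4: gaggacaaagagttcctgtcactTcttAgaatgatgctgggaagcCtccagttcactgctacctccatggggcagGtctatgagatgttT
Cyp2a5: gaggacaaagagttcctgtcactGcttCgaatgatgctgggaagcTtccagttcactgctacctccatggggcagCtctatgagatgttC

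The Cyp2b genes, which the receptor CAR (Nr1i3) induces when phenobarbital-like drugs are given, showed large spread and no call. Cyp2b10 stood at 2.58, 18.5 and 8.31 CPM in FBXL5ΔDC livers at 6 h and at 23.6, 8.11 and 3.37 CPM at 0 h. It stood at 14.4, 3.58 and 10.5 CPM in control livers at 6 h and at 13.7, 10.1 and 6.18 CPM at 0 h. All 4 groups overlapped, and its log2 change was -0.26 ± 0.81 in FBXL5ΔDC livers and -0.07 ± 0.81 in control livers. Cyp2b9, female-predominant in mouse liver, was at most 2.84 CPM outside untreated control livers, where it had 1.70, 20.7 and 4.98 CPM. Cyp2g1, an olfactory P450 below 1 CPM, had no count in any FBXL5ΔDC library at 6 h. It had 0.357, 0.191 and 0.253 CPM in FBXL5ΔDC livers at 0 h, and 0.825, 0.593 and 0.135 CPM in control livers at 6 h and 0.941, 0 and 0.188 CPM at 0 h. It was called lower in FBXL5ΔDC livers at 6 h than at 0 h and than in control livers at 6 h (edgeR adjusted p = 0.0491 for the genotypes). Against a floor of 12 counts per library (0.186 CPM) it was at least 1.43-fold lower than at 0 h and at least 2.78-fold lower than in control livers. The genotype call was lost in 12 of 17 alternatives (adjusted p up to 0.134), among them each fit that left out 1 FBXL5ΔDC library of either time, or control 6 h replicate 1 or 2 or control 0 h replicate 3. The call in FBXL5ΔDC livers was lost without any FBXL5ΔDC 6 h library or without FBXL5ΔDC 0 h replicate 1 (adjusted p up to 0.0633). Values of this size lie near the floor itself.

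Cyp2d enzymes oxidise steroids and many drugs, and the subfamily's genes lie in a cluster on chromosome 15. In sum they stood at 3665 ± 317 CPM in FBXL5ΔDC livers at 6 h and 4713 ± 39.0 CPM at 0 h, and at 2987 ± 490.2 CPM in control livers at 6 h and 4132 ± 394 CPM at 0 h. Of the 7 expressed genes 2 fell and 0 rose in FBXL5ΔDC livers, where 15.1% and 15.0% of all genes did. In control livers 0 were called, where 10.6% of all genes were.

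Cyp2d9, a male-predominant testosterone hydroxylase, stood at 1714, 699.6 and 1386 CPM in FBXL5ΔDC livers at 6 h and at 2398, 2485 and 2344 CPM at 0 h. Control livers had 1327, 902 and 1222 CPM at 6 h and 1577, 2065 and 2199 CPM at 0 h. In both genotypes all 6 h libraries were below all 0 h libraries. Cyp2d9 fell by 0.93 ± 0.26 on the log2 scale in FBXL5ΔDC livers (edgeR adjusted p = 0.0188), a call lost without FBXL5ΔDC 0 h replicate 2 (adjusted p = 0.0536). Its change of -0.76 ± 0.26 in control livers was not called by edgeR (adjusted p = 0.0879) but was called by DESeq2 (adjusted p = 0.0378). Neither tool called the interaction. Cyp2d40 averaged 33.5 ± 5.41 CPM in FBXL5ΔDC livers at 6 h and 61.3 ± 10.8 CPM at 0 h. It averaged 33.8 ± 1.33 CPM in control livers at 6 h and 41.6 ± 6.17 CPM at 0 h. This gene fell in FBXL5ΔDC livers by 0.87 ± 0.16 on the log2 scale (edgeR adjusted p = 0.0019), against -0.30 ± 0.16 in control livers (edgeR adjusted p = 0.281).

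The remaining Cyp2d genes did not pass the test with all libraries. Cyp2d10 averaged 1112 ± 179 CPM in FBXL5ΔDC livers at 6 h and 1038 ± 53.0 CPM at 0 h, and 812 ± 198 CPM in control livers at 6 h and 983 ± 25.2 CPM at 0 h. Cyp2d26 averaged 1015 ± 197 CPM in FBXL5ΔDC livers at 6 h and 936 ± 69.1 CPM at 0 h, and 798 ± 123 CPM in control livers at 6 h and 895 ± 30.3 CPM at 0 h. Cyp2d22 averaged 214 ± 32.2 CPM in FBXL5ΔDC livers at 6 h and 238 ± 7.26 CPM at 0 h, and 180.5 ± 27.4 CPM in control livers at 6 h and 231 ± 24.6 CPM at 0 h. These 3 genes had their lowest group mean in control livers at 6 h. Cyp2d11 ranged from 8.63 to 57.3 CPM and Cyp2d12 from 0.436 to 10.7 CPM, with overlap among all groups for Cyp2d12. Cyp2d10 shares 22.9% of its 50-base stretches with Cyp2d11, and Cyp2d11 shares 26.9% of its own with Cyp2d10. In any other gene, 35.8% of the stretches of Cyp2d10 and 21.8% of those of Cyp2d9 are found. Exons of Gm27622 and Gm46501 overlap Cyp2d9, and an exon of Gm27331 overlaps Cyp2d10, on the same strand.

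Cyp2j enzymes turn arachidonic acid into epoxides and hydroxy acids. Cyp2j5 stood at 308, 385 and 289 CPM in FBXL5ΔDC livers at 6 h and at 407, 417 and 418 CPM at 0 h. Control livers had 335, 335 and 333 CPM at 6 h and 368, 378 and 359 CPM at 0 h. All 6 h libraries of FBXL5ΔDC livers were below the 0 h ones, and the spread was wider at 6 h. Its fall in FBXL5ΔDC livers was small, 0.34 ± 0.12 on the log2 scale (edgeR adjusted p = 0.0436), and the call was kept without FBXL5ΔDC 6 h replicate 2, control 6 h replicate 2 or control 6 h replicate 3 and lost without any other single library (adjusted p up to 0.142).

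Cyp2j9 stood at 19.2, 23.2 and 20.3 CPM in FBXL5ΔDC livers at 6 h and at 7.57, 7.14 and 10.7 CPM at 0 h. It stood at 6.37, 6.73 and 13.7 CPM in control livers at 6 h and at 10.9, 6.88 and 3.72 CPM at 0 h. The FBXL5ΔDC 6 h libraries were above the other 9, and the highest of those 9 was control 6 h replicate 3. Cyp2j9 rose in FBXL5ΔDC livers by 1.30 ± 0.37 on the log2 scale (edgeR adjusted p = 0.0185), a call lost without FBXL5ΔDC 0 h replicate 1 or 2 or FBXL5ΔDC 6 h replicate 2 (adjusted p up to 0.0741). Against control livers at 6 h its log2 difference of 1.23 ± 0.37 was not called (edgeR adjusted p = 0.0708). Cyp2j6 averaged 42.1 ± 10.0 CPM in FBXL5ΔDC livers at 6 h and 54.2 ± 5.77 CPM at 0 h, and 33.3 ± 5.29 CPM in control livers at 6 h and 40.8 ± 3.09 CPM at 0 h, with no call.

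Cyp2r1, the main vitamin D hydroxylase of the liver, stood at 4.85, 5.07 and 3.59 CPM in FBXL5ΔDC livers at 6 h and at 8.64, 9.39 and 9.79 CPM at 0 h. Control livers had 6.35, 3.77 and 3.40 CPM at 6 h and 8.07, 6.03 and 8.10 CPM at 0 h. The groups did not overlap in FBXL5ΔDC livers and overlapped in control livers. Cyp2r1 fell by 1.04 ± 0.25 on the log2 scale in FBXL5ΔDC livers (edgeR adjusted p = 0.0083). Its change of -0.72 ± 0.25 in control livers was not called by edgeR (adjusted p = 0.0920) but was called by DESeq2 (adjusted p = 0.0353). Neither tool called the interaction.

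Cyp2u1, a fatty acid hydroxylase, stood at 4.08, 5.13 and 4.28 CPM in FBXL5ΔDC livers at 6 h and at 18.7, 11.8 and 11.9 CPM at 0 h. In control livers it stood at 21.0, 21.2 and 3.20 CPM at 6 h and at 14.5, 12.6 and 11.6 CPM at 0 h. The low control library was again replicate 3, and the other control 6 h libraries held the highest values of the 12. Cyp2u1 fell by 1.65 ± 0.52 on the log2 scale in FBXL5ΔDC livers (edgeR adjusted p = 0.0337), a call lost without any of the FBXL5ΔDC libraries of either time (adjusted p up to 0.108) and kept without control 6 h replicate 3 (adjusted p = 1.56e-05). The antisense gene 4930534D22Rik overlaps an exon of Cyp2u1, and reads of the pair cannot be told apart.

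**Figure D3:**
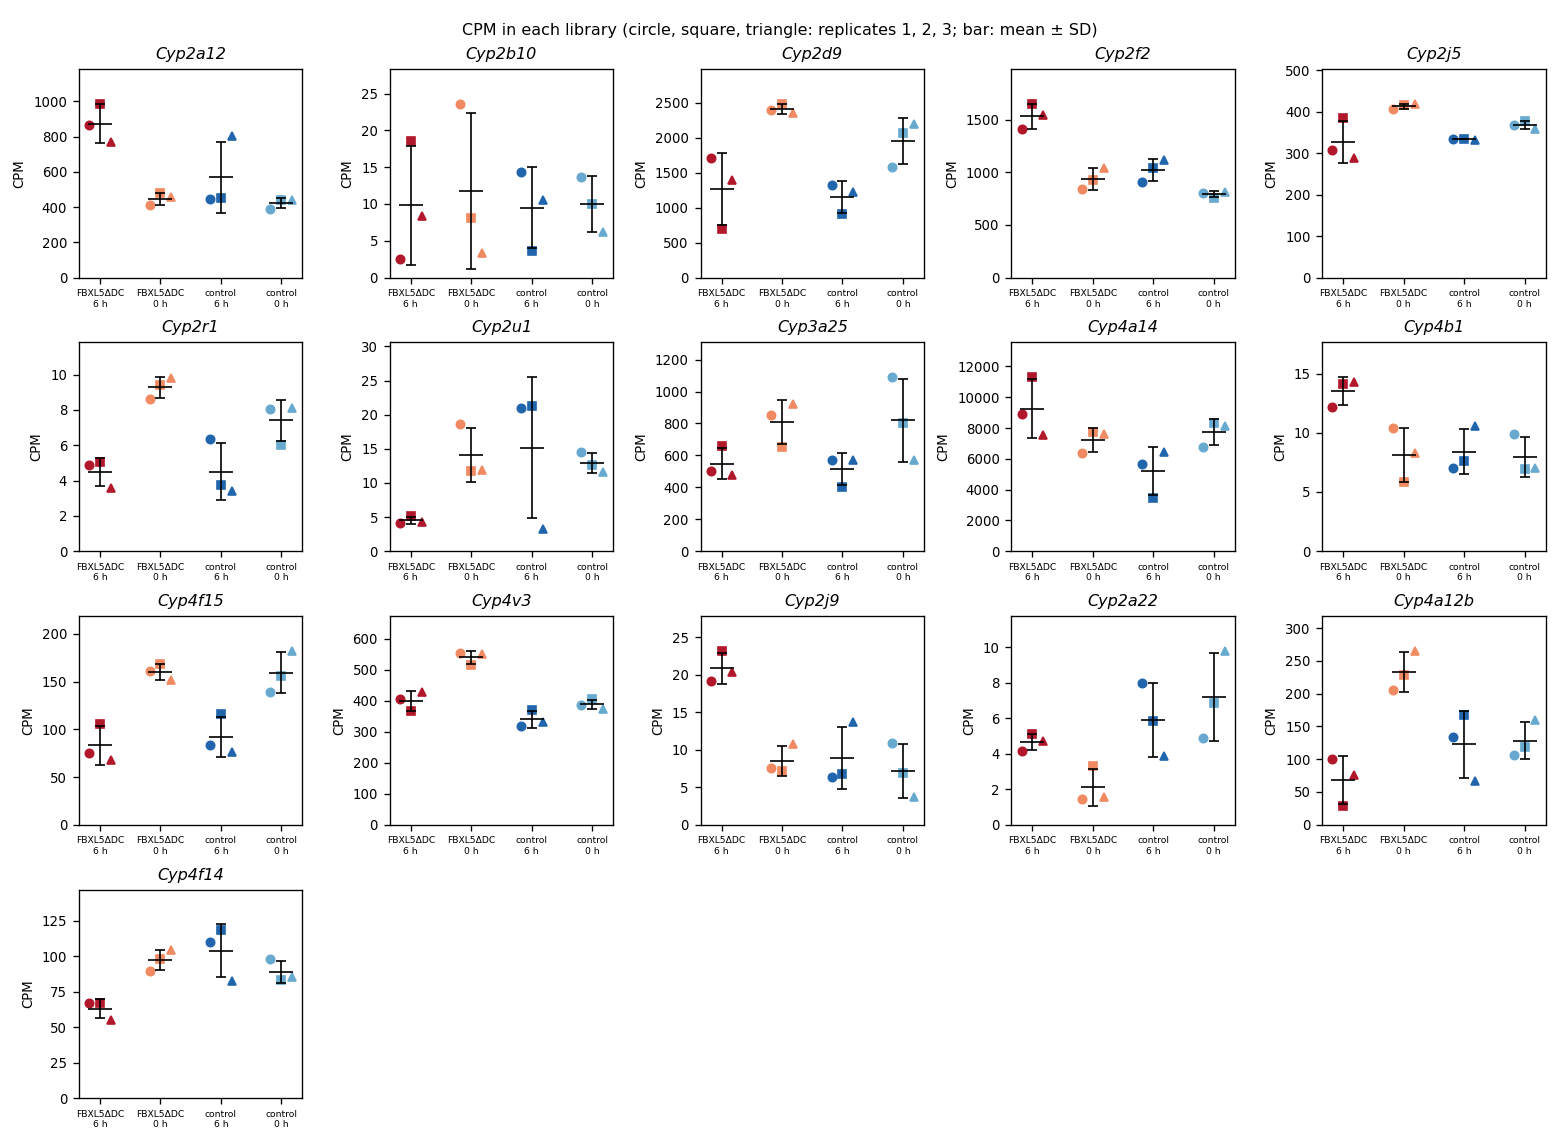
CPM of 16 genes in each of the 12 libraries, with the mean and SD of each group; each panel has its own axis from 0. The panels of Cyp2a12 and Cyp2u1 show control 6 h replicate 3 (blue triangle) beside the FBXL5ΔDC 6 h libraries.

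Cyp3a enzymes oxidise steroids, bile acids and drugs. Cyp3a25, the highest of the subfamily by CPM per kb among the genes described here, stood at 505, 657 and 479.8 CPM in FBXL5ΔDC livers at 6 h and at 851, 654 and 921 CPM at 0 h. Control livers had 574, 401 and 573 CPM at 6 h and 1089.9, 800.2 and 569 CPM at 0 h. The 6 h and 0 h libraries overlapped in both genotypes, and neither the log2 change of -0.56 ± 0.23 in FBXL5ΔDC livers (edgeR adjusted p = 0.0864) nor that of -0.67 ± 0.23 in control livers (edgeR adjusted p = 0.0879) was called.

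Its neighbour Cyp3a59 averaged 40.5 ± 5.78 CPM in FBXL5ΔDC livers at 6 h and 69.1 ± 16.0 CPM at 0 h, and 35.2 ± 9.92 CPM in control livers at 6 h and 60.7 ± 19.8 CPM at 0 h. Cyp3a59 fell by 0.77 ± 0.26 on the log2 scale in FBXL5ΔDC livers (edgeR adjusted p = 0.0400). Its change of -0.78 ± 0.26 in control livers was not called by edgeR (adjusted p = 0.0739) but was called by DESeq2 (adjusted p = 0.0313). Neither tool called the interaction. The FBXL5ΔDC call was lost without any FBXL5ΔDC 6 h library, FBXL5ΔDC 0 h replicate 1 or 3, control 0 h replicate 2 or control 6 h replicate 3 (adjusted p up to 0.160). Cyp3a25 shares 25.2% of its 50-base stretches with Cyp3a59, and Cyp3a59 shares 26.8% of its own with Cyp3a25. Their coding sequences are 97.5% identical. Over the 12 libraries Cyp3a25 averaged 673 CPM and Cyp3a59 51.4 CPM. Some counts of Cyp3a59 could thus belong to Cyp3a25, and their values cannot be read as separate responses. Their promoters are shown because the genes' values at 6 h and 0 h ran side by side. Each holds the half-site (in capitals, with TGACCT its reverse complement) 2 times and no TATA box of the searched letters (RefSeq, GRCm38.p6).
Cyp3a25 (chr5:146009568-146009867, minus strand): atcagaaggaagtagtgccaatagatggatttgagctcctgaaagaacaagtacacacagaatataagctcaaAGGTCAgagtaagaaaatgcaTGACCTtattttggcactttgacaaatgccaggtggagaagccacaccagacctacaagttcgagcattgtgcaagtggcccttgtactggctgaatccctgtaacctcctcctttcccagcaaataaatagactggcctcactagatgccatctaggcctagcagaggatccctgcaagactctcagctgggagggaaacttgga
Cyp3a59 (chr5:146079008-146079307, plus strand): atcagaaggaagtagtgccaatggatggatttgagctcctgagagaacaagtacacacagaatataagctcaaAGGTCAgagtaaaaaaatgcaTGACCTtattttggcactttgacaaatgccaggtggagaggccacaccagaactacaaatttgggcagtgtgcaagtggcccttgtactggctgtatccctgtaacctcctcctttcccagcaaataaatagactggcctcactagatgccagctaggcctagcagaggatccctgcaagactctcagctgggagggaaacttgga

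Cyp3a13 averaged 255 ± 30.4 CPM in FBXL5ΔDC livers at 6 h and 211 ± 21.5 CPM at 0 h, and 231 ± 19.1 CPM in control livers at 6 h and 194 ± 9.36 CPM at 0 h, with no call. The female-predominant Cyp3a16, Cyp3a41b and Cyp3a44 were at most 19.3 CPM in any library and were each below the floor in at least 1 group, so that no fold change is given for them. Cyp3a41b was at 0 in all FBXL5ΔDC 6 h libraries and at 2.64, 2.16 and 2.49 CPM in those of 0 h, without passing the edgeR test (adjusted p = 0.0715). DESeq2 called Cyp3a41b lower in FBXL5ΔDC livers at 6 h than at 0 h (adjusted p = 0.0022). By DESeq2 it was also lower than in control livers at 6 h (adjusted p = 0.0283). Of its 50-base stretches 93.5% are shared with Cyp3a41a, from which it differs at 2 of 1512 coding bases. The 3 male-predominant genes (Cyp2d9, Cyp4a12a and Cyp4a12b) summed to 773 to 2051 CPM in FBXL5ΔDC livers at 6 h and 2880 to 3156 CPM at 0 h, and to 1330.3 to 1650.3 CPM in control livers at 6 h and 1899 to 2692 CPM at 0 h.

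Between genotypes at 6 h, 2 of 44 genes were higher in FBXL5ΔDC livers (Cyp4a14 and Cyp2f2), where 1.35% of all genes were, and 2 were lower (Cyp4f14 and Cyp2g1), where 4.51% of all genes were. The median log2 difference of the 37 expressed genes was 0.17, against -0.01 for all genes, and 24 of the 37 were positive. Control 6 h replicate 3 lay nearer to the FBXL5ΔDC 6 h mean than to that of the other control 6 h libraries for 23 of the 37 genes (62.2%), and for 62.3% of all tested genes. Without it 8 genes were higher and 4 lower in FBXL5ΔDC livers, where 10.1% and 12.9% of all genes were. The added calls were Cyp2a12 (log2 0.96 ± 0.14, adjusted p = 0.0002), Cyp2d10 (0.67 ± 0.14), Cyp2d26 (0.48 ± 0.15), Cyp2j9 (1.67 ± 0.35), Cyp4b1 (0.89 ± 0.24) and Cyp4f17 (1.34 ± 0.19), all higher, and Cyp2u1 (-2.23 ± 0.21) and Cyp2a4 (-4.59 ± 1.05), both lower. The Cyp2a4 value rests on the high control 6 h replicate 2. With all 12 libraries DESeq2 called Cyp2a12 (adjusted p = 0.0387), Cyp2j9 (0.0148), Cyp4f17 (0.0342) and Cyp2u1 (0.0062) in the same directions. It did not call Cyp2d10, Cyp2d26 or Cyp4b1, and gave no adjusted p for Cyp2a4. With 2 control libraries left at 6 h, the spread of a gene is estimated over all groups, as in the fit with all libraries. Leaving out a library can thus change the standard errors of every comparison. For the Cyp2u1 change in FBXL5ΔDC livers, given above with all libraries, the SE was 0.19 without control 6 h replicate 3. The left-out library was singled out because it lay beside the FBXL5ΔDC 6 h libraries. Wider differences without it thus follow in part from that choice, and calls without it are no separate support.

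Without that library the interaction was called for 6 genes, 3 positive and 3 negative, where 5.97% of all genes were positive and 7.74% negative. The positive ones were Cyp2a12 (0.87 ± 0.18), Cyp4a14 (1.11 ± 0.29) and Cyp4f17 (1.32 ± 0.24). The negative ones were Cyp2u1 (-2.36 ± 0.28), Cyp4f14 (-0.99 ± 0.16) and the near-absent Cyp2g1. In control livers alone 1 gene then rose (Cyp2u1, 0.71 ± 0.20) and 4 fell, which were Cyp2d10 (-0.49 ± 0.14), Cyp4a14 (-0.76 ± 0.22), Cyp4f15 (-0.67 ± 0.19) and Cyp4f17 (-0.83 ± 0.18), where 5.23% of all genes rose and 3.86% fell. In FBXL5ΔDC livers 6 genes rose and 10 fell, where 16.9% of all genes rose and 17.3% fell, with Cyp4f17 added (0.49 ± 0.16) and Cyp3a59 lost.

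**Figure D4:**
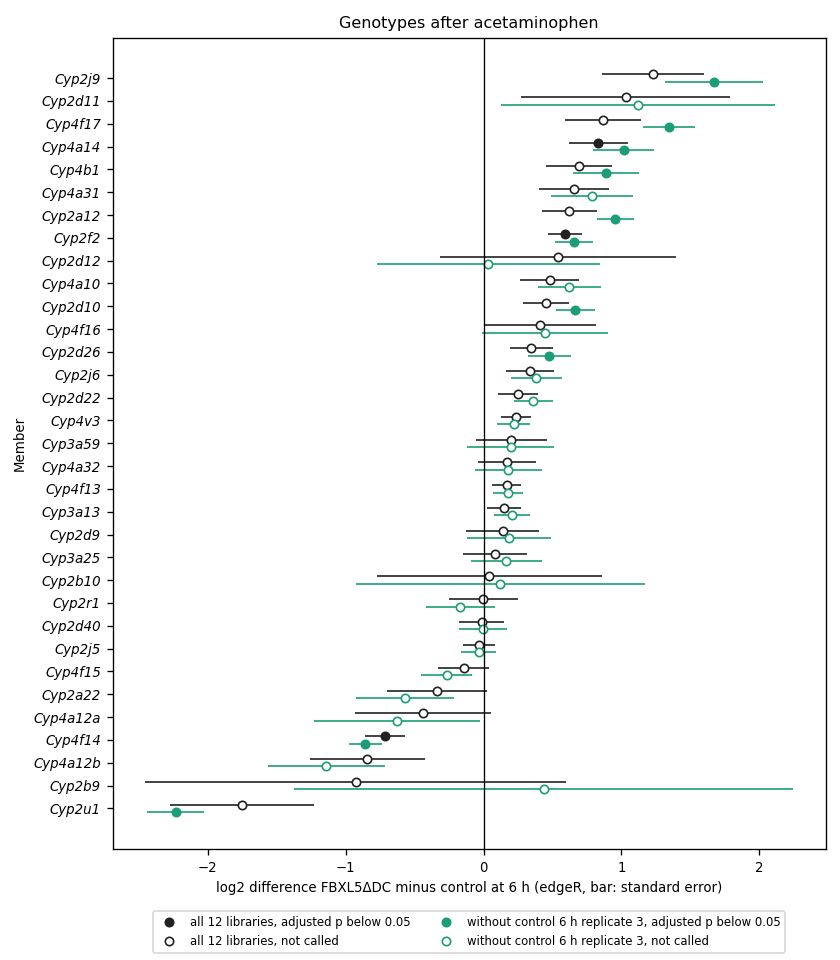
Log2 difference of FBXL5ΔDC minus control livers at 6 h (edgeR, bar: standard error) for 33 expressed genes, with all 12 libraries (black, above) and without control 6 h replicate 3 (green, below); filled points have an adjusted p below 0.05. Cyp2a4 and 3 genes with a group below the floor are left out. More points are filled without the library, among them Cyp2j9 at 1.67 and Cyp2u1 at -2.23.

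Between untreated livers of the genotypes 0 of 44 genes were called in either direction, as were 0% of all tested genes. At an unadjusted p below 0.05, 3 were higher and 2 lower in FBXL5ΔDC livers, where 1.22% and 1.43% of all genes were. DESeq2 called 1 higher (Cyp4v3, adjusted p = 0.0211) and 1 lower (Cyp2a22), where it called 0.0458% and 0.0356% of all genes. The median log2 difference of the expressed genes was 0.13, against -0.0038 for all genes.

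Genes that serve or control P450 enzymes were read beside them. Of all genes, 15.0% rose and 15.1% fell in FBXL5ΔDC livers, and 6.36% rose and 4.20% fell in control livers. Between genotypes at 6 h, 1.35% of all genes were higher and 4.51% lower in FBXL5ΔDC livers. The shares without control 6 h replicate 3 are those given with the genotype comparison. Of 7 genes for electron supply and haem synthesis, 0 rose and 2 fell in FBXL5ΔDC livers, which were Cyb5b (log2 -0.84, edgeR adjusted p = 0.0028) and the haem synthesis gene Fech (-0.28, edgeR adjusted p = 0.0485). In control livers only Fech fell (-0.41, edgeR adjusted p = 0.0206), and 0 were called between genotypes at 6 h. Without control 6 h replicate 3, 1 rose and 2 fell in control livers, and 2 were higher and 2 lower in FBXL5ΔDC than in control livers at 6 h. Por, which passes electrons to these P450 enzymes, was not called with all libraries, with 698 ± 17.6 CPM in FBXL5ΔDC livers at 6 h and 685 ± 17.9 CPM at 0 h, and 572 ± 211 CPM in control livers at 6 h and 702 ± 111 CPM at 0 h. Without control 6 h replicate 3 it fell by 0.64 on the log2 scale in control livers (edgeR adjusted p = 0.0092) and was higher by 0.63 in FBXL5ΔDC than in control livers at 6 h (edgeR adjusted p = 0.0039).

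Of 16 transcription factors that control P450 genes, 0 rose and 8 fell in FBXL5ΔDC livers, where 15.0% and 15.1% of all genes did. In control livers 1 rose and 4 fell, where 6.36% and 4.20% of all genes did. CAR (Nr1i3) stood at 31.9, 44.5 and 31.4 CPM in FBXL5ΔDC livers at 6 h and at 265, 232 and 233 CPM at 0 h. In control livers it stood at 141, 63.1 and 59.9 CPM at 6 h and at 251, 282 and 219.9 CPM at 0 h. It fell by 2.76 on the log2 scale in FBXL5ΔDC livers (edgeR adjusted p = 0.0001) and by 1.51 in control livers (edgeR adjusted p = 0.0071). At 6 h 6 of the 16 were lower in FBXL5ΔDC than in control livers (Nr1i3, Ppara, Ahr, Nr0b2, Tef and Nfil3), and 0 were higher, where 4.51% and 1.35% of all genes were. Without control 6 h replicate 3 this was 9 of 16 lower and 0 higher, where 12.9% and 10.1% of all genes were. In that fit 1 rose and 2 fell in control livers, and the interaction, called for 0 with all libraries, was negative for 5, where 7.74% of all genes were.

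Pericentral hepatocyte genes outside the P450 families fell as well. Of 10 such genes, 10 fell in FBXL5ΔDC livers and 5 in control livers, where 15.1% and 4.20% of all genes did. At 6 h 8 of the 10 were lower in FBXL5ΔDC than in control livers, where 4.51% of all genes were. The sum of the 10 genes was 251 to 266 CPM in FBXL5ΔDC livers at 6 h and 2330.4 to 2784 CPM at 0 h, and 425 to 931 CPM in control livers at 6 h and 1838 to 2322 CPM at 0 h. The interaction was negative for 3 of 10, where it was for 0.256% of all genes. Without control 6 h replicate 3, 5 fell in control livers and 8 were lower in FBXL5ΔDC livers at 6 h, where 3.86% and 12.9% of all genes were. The interaction was then negative for 8 of 10, where it was for 7.74% of all genes. Their part in the results for the P450 genes was not tested.

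Some markers of other cell types rose in treated livers, and with all libraries 0 markers of these lists were called in the interaction. Of all genes, 15.0% rose in FBXL5ΔDC livers and 6.36% in control livers. At 6 h 1.35% of all genes were higher in FBXL5ΔDC than in control livers, and 10.1% without control 6 h replicate 3. Of 5 bile duct markers 4 rose in FBXL5ΔDC and 1 in control livers, with sums in FBXL5ΔDC livers of 68.0 to 263 CPM at 6 h and 20.0 to 25.6 CPM at 0 h, and in control livers the sums were 27.2 to 82.0 CPM at 6 h and 15.0 to 23.5 CPM at 0 h. Of 6 sinusoidal endothelial markers 5 rose in FBXL5ΔDC and 0 in control livers, with sums in FBXL5ΔDC livers of 211 to 259 CPM at 6 h and 107 to 137 CPM at 0 h, and in control livers 112 to 173 CPM at 6 h and 106 to 128 CPM at 0 h. Of 5 stellate cell markers 3 rose in FBXL5ΔDC and 0 in control livers, with sums in FBXL5ΔDC livers of 176 to 219 CPM at 6 h and 51.2 to 93.4 CPM at 0 h, and in control livers 97.8 to 159 CPM at 6 h and 78.9 to 119 CPM at 0 h. Of 8 neutrophil markers 6 were tested, and 4 rose in FBXL5ΔDC and 1 in control livers, with sums in FBXL5ΔDC livers of 3.40 to 10.2 CPM at 6 h and 0.730 to 1.87 CPM at 0 h, and in control livers 2.66 to 3.62 CPM at 6 h and 0.953 to 1.53 CPM at 0 h; Ngp was at 0 in FBXL5ΔDC livers at both times and Ly6g at 0 in all groups but FBXL5ΔDC at 6 h. Of 6 Kupffer cell markers 1 rose in each genotype, of 6 monocyte markers 1 rose in FBXL5ΔDC livers, and of 6 dendritic cell markers 0 were called. Without control 6 h replicate 3, 0 bile duct and 1 stellate cell marker rose in control livers. At 6 h 3 bile duct, 5 sinusoidal endothelial, 3 stellate cell, 1 Kupffer cell and 5 hepatocyte markers were then higher in FBXL5ΔDC than in control livers. With all libraries only 1 sinusoidal endothelial marker was higher. In the fit without that library 1 stellate cell and 1 dendritic cell marker were lower at 6 h, where 12.9% of all genes were. The interaction was then positive for 2 bile duct, 4 sinusoidal endothelial, 3 stellate cell and 2 hepatocyte markers. It was positive for 5.97% of all genes in that fit, against 0.0341% with all libraries. The part of these cells in the results for the P450 genes was not tested.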

How the data were processed

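RNA from 12 whole livers was sequenced. The submitters' processing notes name Trim Galore 0.6.6, HISAT2 2.2.1 and the mm10 build. How reads were counted, and whether strand was used, is not given in the sources used here. The deposited values were estimated counts per gene, without normalisation, which held whole numbers only. Low values piled up at multiples of 4 (26.5% to 28.5% of the values from 1 to 40), so the fragments behind a count are not known, and the detection floor was set at 12 counts per library; it covers counting error only. The plan had assumed raw counts, and the same test was used, as the values needed no rounding.

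From these counts, genes were filtered with filterByExpr, scaled by TMM and fitted in edgeR 4.0.16 (R 4.3.3) with a robust quasi-likelihood model of 4 group coefficients over all 12 libraries (8 residual degrees of freedom). P-values were adjusted by Benjamini-Hochberg over 17585 genes of a comparison. DESeq2 1.42.0 was an alternative, as were other scalings, no filter, fits on the compared groups alone, a replicate block and leaving out each library. The fit was tested on simulated data of 17585 genes, of which 100 were changed by 1 and 100 by 2 on the log2 scale. The changed genes lay above a count limit, and all others were unchanged. Of those changed by 1 it called 45% in FBXL5ΔDC livers, 39% between genotypes at 6 h and 7% in the interaction. In the real data 30.1% of all genes were called in FBXL5ΔDC livers, so these rates do not carry over to the tests here. Identifiers matched GENCODE vM21 (GRCm38) for 98.1% of genes and for all 57 P450 genes, and shared sequence was measured in stretches of 50 bases. Of 37 expressed genes 15 share over 20% of these with other genes, which leaves their counts uncertain.

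Members and gene lists were chosen with earlier results of these data known. Values in every library are given for the expressed gene with the highest CPM per kb of each subfamily and for up to 4 higher and 4 lower calls of each comparison of groups. The library values of Cyp2a4, Cyp2b9, Cyp2g1, Cyp3a41b, Cyp2a5, Ppara and Nr1i3 were added after their values were seen. Of the list of PPARα targets, 1 gene is counted with its list and not named here. The gene lists without control 6 h replicate 3 were an alternative chosen after seeing the data.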

Additional observations from a re-analysis of the deposited data

How the results depend on the processing

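Of 19 calls on expressed genes, 8 were kept in each of 18 alternatives and 11 were lost in at least 1; no direction turned. The 8 were the changes of Cyp2a12, Cyp2d40, Cyp2f2, Cyp2r1, Cyp4a12b, Cyp4f14, Cyp4f15 and Cyp4v3 in FBXL5ΔDC livers. With DESeq2 FBXL5ΔDC livers had 6 genes higher and 14 lower at 6 h than at 0 h, where 16.6% and 16.2% of all genes were. Control livers had 1 higher (Cyp2f2) and 6 lower, where 9.87% and 7.01% were. The 6 were Cyp2d9, Cyp2r1, Cyp3a25, Cyp3a59, Cyp4f13 and Cyp4f15. At 6 h 5 genes were higher and 4 lower in FBXL5ΔDC than in control livers, where 4.32% and 8.60% of all genes were. At 0 h 1 was higher and 1 lower, where 0.0458% and 0.0356% were. The DESeq2 interaction had 2 lower, where 2.72% of all genes were. Median-ratio and upper quartile scaling each gave 1 gene lower in FBXL5ΔDC than in control livers at 6 h, and upper quartile scaling 2 lower in control livers at 6 h than at 0 h. Fits on the compared groups alone gave 0 lower in control livers and 0 higher and 0 lower between the genotypes at 6 h; these had fewer samples. Leaving out 1 library gave 3 to 6 genes higher and 7 to 12 lower in FBXL5ΔDC livers (3 higher without any FBXL5ΔDC library, 7 lower without FBXL5ΔDC 0 h replicate 1 or FBXL5ΔDC 6 h replicate 3), 0 to 1 and 0 to 4 in control livers, 0 to 8 and 0 to 4 between genotypes at 6 h, 0 to 0 in both directions at 0 h, and 0 to 3 and 0 to 3 in the interaction. The upper ends between genotypes and in the interaction came without control 6 h replicate 3, and the 0 higher between genotypes at 6 h without control 6 h replicate 1 or 2 or FBXL5ΔDC 6 h replicate 2. The cause was not tested. Same-numbered libraries did not deviate together (correlations -0.061 to 0.044 over 18 pairs, with 2 of 12 libraries closest to their own number). There was thus no sign that the numbers pair the samples, but with 3 libraries a group a weak shared effect could be missed. With the replicate block 1 gene was higher and 1 lower between genotypes at 6 h, and 5 rose and 9 fell in FBXL5ΔDC livers. With 3 libraries a group, genes with large spread such as Cyp2b10 allow no statement on small changes.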
